A study of Mus musculus with 13 samples.

Results

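The net change of the wild-type mouse cerebellum between the young adult and the newborn was taken from the postnatal day 30 (P30) libraries set against the postnatal day 1 (P1) libraries, which are 5 of the 13 libraries of the series. The P30 group holds 3 libraries (1, 2 and 3) and the P1 group 2 libraries (8 and 9), all from cerebella of wild-type mice on a C57BL/6 background, with no treatment named in the labels. The other 8 libraries came from wild-type P10 and from P10 and P1 mice that lack Sam68 (an RNA-binding regulator of splicing, product of Khdrbs1). They served to estimate the spread and counted in the expression limit that set which genes were tested. Total RNA was made into libraries with a modified stranded mRNA kit. The labels give neither sex nor the number of animals behind a library, so the p-values measure the spread between these libraries, which may be technical.

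The cerebellum is largely built after birth. In the newborn, granule cell precursors divide in the outermost layer under the control of Sonic hedgehog, a protein secreted by Purkinje cells. Their daughters leave the cell cycle, migrate inwards past the fibres of Bergmann glia and form synapses with mossy fibres and with Purkinje cells. In the same weeks Purkinje cells extend their dendrites, stellate and basket interneurons settle, and oligodendrocytes wrap axons in myelin. Neurons also change which exons they keep as they mature, among them very short exons (microexons) that alter a few residues of synaptic and cytoskeletal proteins.

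Expression values were cRPKM (read density corrected for transcript length, mappability and library size), and 14063 genes reached an average of 1 cRPKM in some group and were tested. Exon and intron inclusion was measured as PSI, the percent of junction reads that support inclusion, for 33878 events. Depth was uneven. Junction reads over simple exon events came to between 10.55 and 12.64 megareads in the P30 libraries, against 7.83 and 10.78 megareads in P1 libraries 8 and 9. Judged by the smallest steps of the values, 1 read on a transcript of 2 kb was worth 0.236, 0.128 and 0.172 cRPKM in the P30 libraries, against 0.326 and 0.453 cRPKM in the P1 libraries. Marker sums set some libraries apart. Genes of the midbrain and caudal hindbrain summed to 10.8, 11.6 and 16.1 cRPKM in P30 libraries 1, 2 and 3, against 95.7 and 44.5 in P1 libraries 8 and 9, and 21 of the 29 table rows for them were at 0 in every P30 library, against 2 in both P1 libraries. Choroid plexus genes summed to 41.4, 389.2 and 1203.6 cRPKM in P30 libraries 1, 2 and 3, against 36.6 and 30.7 in the P1 libraries, and in P30 libraries 2 and 3 most of that sum was Ttr, at 2.31, 321 and 1079 cRPKM in the P30 libraries and 12.8 and 2.95 in the P1 libraries. The part of these neighbouring tissues in the results was not tested. In bulk RNA, fewer cells of a type and less RNA per cell cannot be told apart.

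Of the 14063 genes, 3575 (25.4%) passed the test, 1359 (9.66%) higher and 2216 (15.8%) lower at P30, and the median gene changed by -0.13 on the log2(cRPKM + 1) scale. Counts in the gene lists below are to be read beside these shares of all genes. The largest rises were those of Gng13, Gabra6 and Cbln3, and the largest falls those of Dcx, Dpysl3 and Ube2c, among called genes whose libraries do not overlap and whose higher group averages at least 5 cRPKM. Gabra6, the GABA-A receptor subunit that marks mature granule cells, had 353, 380.2 and 360.2 cRPKM in P30 libraries 1, 2 and 3, against 0.26 and 0.36 in P1 libraries 8 and 9. Dcx, the microtubule protein doublecortin of migrating neurons, had 0.6, 1.83 and 0.92 cRPKM in the P30 libraries, against 149 and 182 in the P1 libraries. For each gene the groups lay far apart, Gabra6 with a log2 change of 8.12 (SE 0.49, adjusted p = 4.04e-07) and Dcx with -6.33 (SE 0.28, adjusted p = 4.68e-08). The counts differed with the libraries used, since without P1 library 9 the test called 2242 genes.

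**Figure D1:**
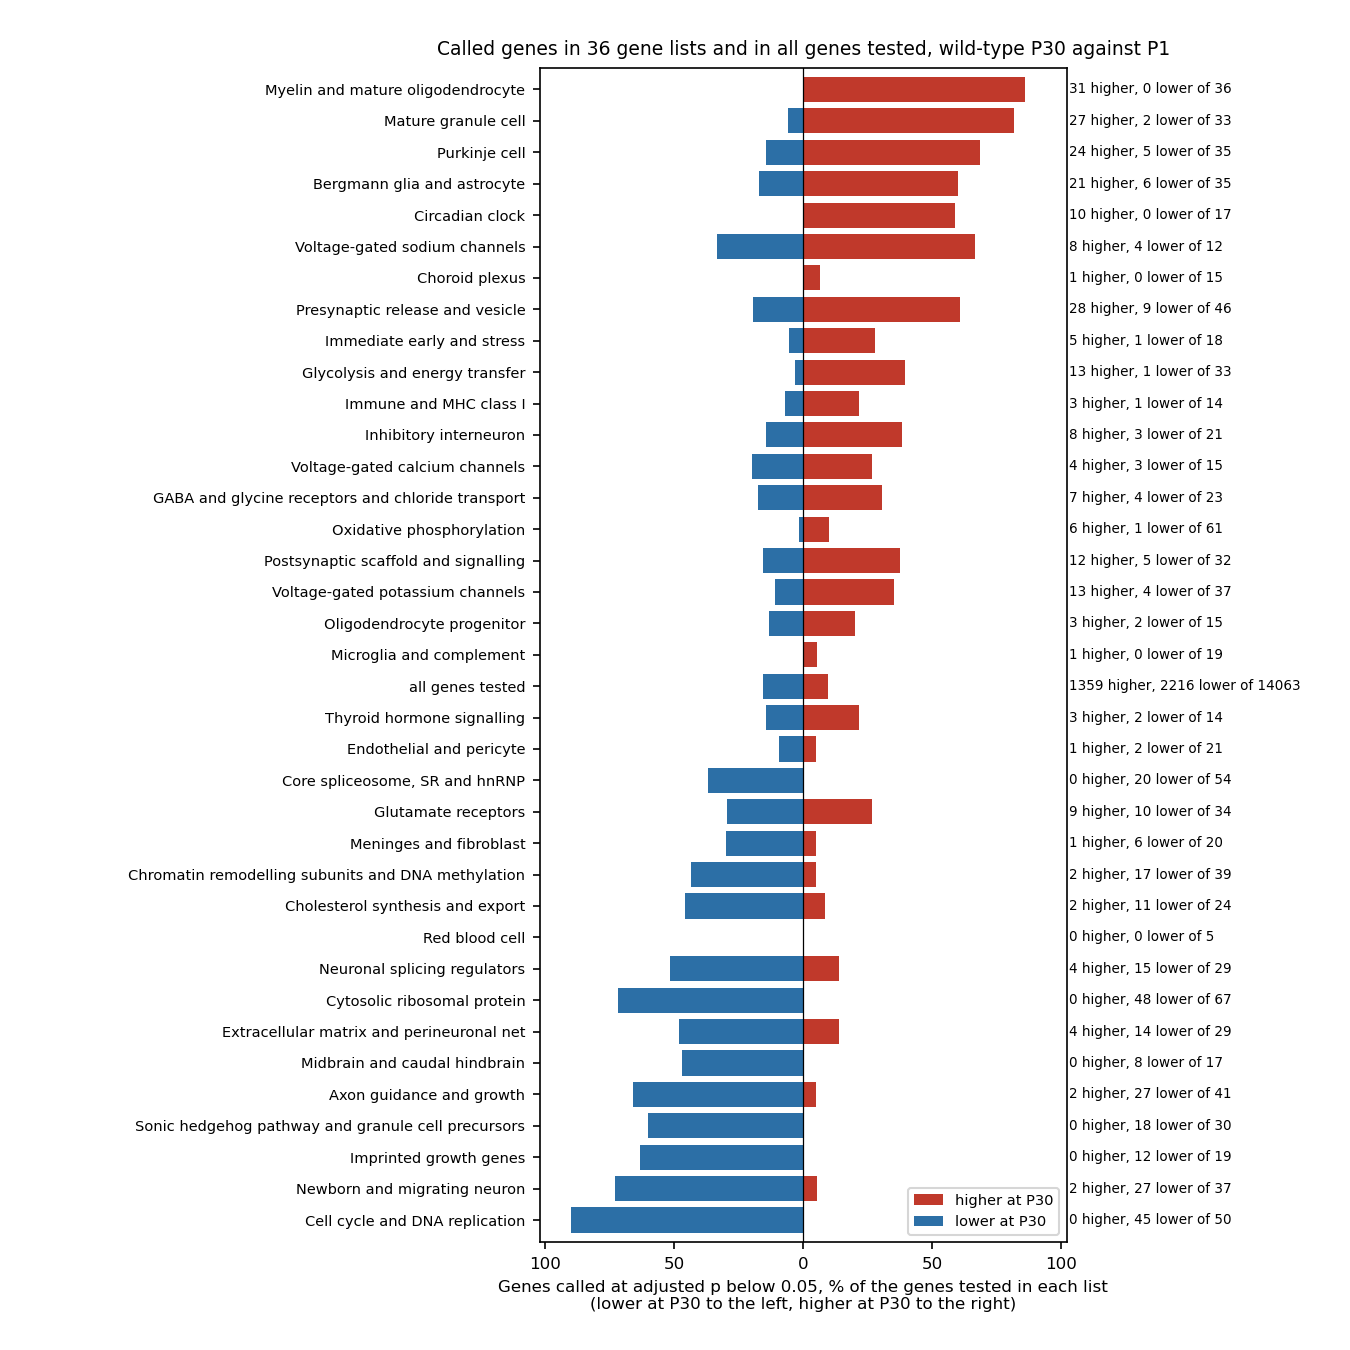
Share of the tested genes called higher at P30 (bars to the right) or lower at P30 (bars to the left) in each of 36 gene lists and in all genes tested, with the counts beside each bar and the lists ordered by their median log2 change. Myelin, mature granule cell and Purkinje cell lists stand at the top with 31, 27 and 24 genes higher, and the cell cycle list at the bottom with 45 of 50 genes lower.

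Mature granule cell genes were higher at P30. In that list 27 of 33 tested genes rose and 2 fell (none without P1 library 8 or 9 or P30 library 3, and 1 without P30 library 1 or 2), with a median log2 change of 2.04, against 9.66% of all genes higher and 15.8% lower. Cbln3, a secreted cerebellin found in granule cells, had 379, 365 and 363 cRPKM at P30 and 1.09 and 0.76 cRPKM at P1. Gabrd, the delta subunit of the GABA-A receptors that answer to ambient GABA outside synapses, had 117, 121 and 137 cRPKM at P30 and 0 and 0.46 cRPKM at P1. Both genes were near the detection step in each P1 library, and the adjusted p was 3.08e-08 for Cbln3 and 5.34e-09 for Gabrd. Chn2, which encodes a Rac GTPase-activating protein, averaged 379 ± 24.3 cRPKM at P30 and 11.9 ± 2.30 at P1 (SD, n = 3 and 2), a log2 change of 4.90 (SE 0.25, adjusted p = 1.37e-07). The change of Camk4, a calcium and calmodulin dependent kinase, was 2.87 (SE 0.18, adjusted p = 4.44e-07). Grm4, the metabotropic glutamate receptor of parallel fibre terminals, changed by 4.36 (SE 0.36, adjusted p = 4.35e-06). One member that fell was Kcnk9, a leak potassium channel, whose call was lost without P1 library 8 or 9 or P30 library 3 (adjusted p of 0.0502 to 0.0867).

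Granule cell precursor and Sonic hedgehog genes were lower. Of 30 tested, 18 fell and none rose, with a median log2 change of -1.47, although 3 rose when P1 library 9 was left out. Nhlh1, a transcription factor of granule neurons that have just left the cycle, had 0.19, 0.2 and 0 cRPKM at P30 and 9.01 and 19.3 cRPKM at P1. Mycn, the proto-oncogene that Sonic hedgehog induces, had 0.86, 1.31 and 1.51 cRPKM at P30 and 11.9 and 30.3 cRPKM at P1. Ccnd2, a D-type cyclin of dividing precursors, had 0.8, 2.34 and 2.74 cRPKM at P30 and 29.7 and 64.9 cRPKM at P1. In these 3 genes every P30 library was below both P1 libraries, and P1 library 9 was above P1 library 8. The log2 changes were -3.66 (adjusted p = 9.01e-06), -3.18 (adjusted p = 4.15e-05) and -3.99 (adjusted p = 1.04e-05). Barhl1, a homeobox factor of the granule lineage, was lower but still measured at P30, with 2.37, 3.18 and 3.91 cRPKM at P30 and 16.2 and 25.3 cRPKM at P1. The pathway genes Gli1, Ptch1, Hhip, Boc, Sufu, Gas1 and Cdon were among the 12 that did not pass the test.

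Cell cycle genes were lower almost throughout. Of 50 tested, 45 fell and none rose, with a median log2 change of -2.60. Mki67, the proliferation antigen Ki-67, had 0.28, 0.06 and 0.12 cRPKM at P30 and 28.7 and 57.2 cRPKM at P1. Top2a, the topoisomerase that separates sister chromatids, had 0.26, 0.14 and 0.25 cRPKM at P30 and 21.8 and 53.4 cRPKM at P1. Mcm6, a subunit of the replicative helicase, had 2.84, 1.2 and 1.73 cRPKM at P30 and 41.2 and 52.1 cRPKM at P1. All 3 P30 libraries were close to 0 for Mki67 and Top2a, and P1 library 9 had the higher value of the P1 pair for each gene. The log2 changes were -5.18 (adjusted p = 7.82e-07), -4.86 (adjusted p = 4.84e-07) and -4.06 (adjusted p = 9.24e-07). The genes without a call were Rfc4, E2f2, Pola1, Ccne1 and Ccne2.

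Genes of newborn and migrating neurons were lower, several of them from very high levels at P1. In the list 27 of 37 tested genes fell and 2 rose, with a median log2 change of -2.20. Tubb2b, a beta tubulin of growing neurites, had 150.4, 139.6 and 161 cRPKM at P30 and 4245 and 3619 cRPKM at P1. Dpysl3, a regulator of the growth cone cytoskeleton, had 8.32, 7.01 and 7.84 cRPKM at P30 and 655 and 578 cRPKM at P1. Basp1, a membrane protein of axon endings, had 6.01, 5.71 and 6.41 cRPKM at P30 and 469.8 and 358 cRPKM at P1. P30 values of each gene agreed closely and lay far under those of P1, with adjusted p of 2.72e-07, 2.21e-08 and 3.01e-09. Sox4, a transcription factor of immature neurons, changed by -4.63 (SE 0.22, adjusted p = 8.78e-08), and Cd24a, a surface glycoprotein of young neurons found through the largest falls, by -5.31 (SE 0.16, adjusted p = 3.01e-09). St8sia2, which adds polysialic acid to NCAM, fell by 5.37 on the log2 scale to 0.34, 0.28 and 0.31 cRPKM in the P30 libraries, against 51.5 and 54.6 in the P1 libraries. The members that rose were Neurod1, a transcription factor kept in granule neurons, and Cntn2, an axonal adhesion molecule that is also part of myelinated fibres.

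Most Purkinje cell genes were higher. Of 35 tested, 24 rose and 5 fell, with a median log2 change of 1.73. Among all genes 9.66% were higher and 15.8% lower, so the falls were near the share of all genes. Itpr1, the channel that releases calcium from internal stores, had 472, 343 and 370.4 cRPKM at P30 and 8.69 and 24.1 cRPKM at P1. Gng13, a G protein gamma subunit, had 822, 714 and 935 cRPKM at P30 and 3.49 and 0 cRPKM at P1. Atp2a3, a calcium pump of the endoplasmic reticulum, had 89.2, 67.8 and 75 cRPKM at P30 and 0.83 and 0.57 cRPKM at P1. No P30 library came near the P1 range for these calcium and G protein genes, and the log2 changes were 4.65, 8.60 and 5.52 (adjusted p = 4.39e-06, 1.58e-06 and 7.18e-07). Rgs8, a regulator of G protein signalling, changed by 4.19 (SE 0.25, adjusted p = 3.71e-07), and Car8, a protein that binds the Itpr1 receptor, by 2.75 (SE 0.25, adjusted p = 1.11e-05). Homer3, the scaffold that ties metabotropic receptors to Itpr1, changed by 3.45 (SE 0.33, adjusted p = 1.41e-05). The classical markers Calb1 and Pcp2 also rose. The members that fell were the transcription factors Foxp2, Foxp1, Bcl11a, Ebf1 and Ebf2, of which Foxp1 lost its call with any 1 of the 5 libraries left out (adjusted p of 0.0561 to 0.129).

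Among inhibitory interneuron genes 8 of 21 rose and 3 fell, or 5 and 1 without P1 library 8, and 5 rose without P30 library 1. Of all genes 9.66% were higher and 15.8% lower, so the falls were near the share of all genes. Pvalb, the calcium buffer of basket and stellate interneurons and of Purkinje cells, had 271, 252 and 280.5 cRPKM at P30 and 2.01 and 0.93 cRPKM at P1. Kcna1, a potassium channel clustered at basket cell terminals, had 63.3, 66.6 and 66.5 cRPKM at P30 and 3.35 and 4.26 cRPKM at P1. Gad1, which makes GABA, had 236, 194 and 206 cRPKM at P30 and 87.9 and 80 cRPKM at P1. The P30 libraries were high and alike for each of these genes, with log2 changes of 6.80, 3.80 and 1.32 (adjusted p = 4.44e-07, 6.84e-07 and 0.0031). The genes that fell included Sst, a neuropeptide, and the progenitor factor Pax2, and the call was lost for Sst without P1 library 8 (adjusted p = 0.0653) and for Pax2 without P1 library 8 or 9 or P30 library 2 or 3 (adjusted p of 0.0537 to 0.153).

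Myelin genes rose together. In that list 31 of 36 tested genes rose and none fell, with a median log2 change of 3.31, the largest of the 36 lists. Mbp, which compacts myelin, had 2464, 2789 and 3069 cRPKM at P30 and 39.2 and 24.7 cRPKM at P1. Mobp, another protein of compact myelin, had 129, 148 and 161 cRPKM at P30 and 0.43 and 0.6 cRPKM at P1. In both genes P30 library 3 was highest and library 1 lowest among the P30 libraries, and both P1 libraries were low. The log2 changes were 6.43 (adjusted p = 1.99e-06) and 6.60 (adjusted p = 3.89e-07). Mag, an adhesion molecule facing the axon, changed by 5.28 (SE 0.40, adjusted p = 2.16e-06), and Cldn11, the tight junction protein of myelin, by 4.34 (SE 0.31, adjusted p = 1.51e-06). Oligodendrocyte progenitor genes did not share this pattern, since 3 of 15 rose, 2 fell (1 with any of the 5 libraries left out) and their median log2 change was 0.032, which turned to -0.077 without P1 library 9 and to -0.056 without P30 library 2. Of all genes 9.66% were higher and 15.8% lower. More progenitor genes fell in other fits. With only the 3 wild-type groups fitted 4 rose and 5 fell, and with only the 2 compared groups 3 rose and 6 fell. Those fits called 5384 and 6129 of all 14063 genes. Without knockout P1 library 15, 3 progenitor genes rose and 4 fell. Pdgfra, the growth factor receptor of progenitors, had 6.23, 4.06 and 5.01 cRPKM at P30 and 33.4 and 35.6 cRPKM at P1, and Bcas1, a marker of oligodendrocytes that begin to myelinate, had 61.7, 60.3 and 69.1 cRPKM at P30 and 14.5 and 16.9 cRPKM at P1. All P30 values were below those of P1 for Pdgfra (adjusted p = 1.91e-05) and above them for Bcas1 (adjusted p = 1.56e-05).

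Bergmann glia and astrocyte genes rose in 21 and fell in 6 of 35 cases, with a median log2 change of 1.42. Beside 9.66% of all genes higher and 15.8% lower, the falls were near the share of all genes. S100b, a calcium-binding protein of mature astroglia, had 386, 357 and 426 cRPKM at P30 and 12.6 and 10.2 cRPKM at P1. Kcnj10, the channel that clears extracellular potassium, had 67.4, 52.9 and 63.3 cRPKM at P30 and 12.8 and 13.6 cRPKM at P1. The opposite held for Fabp7, the lipid-binding protein of radial glia, with 39.4, 73.5 and 66.7 cRPKM at P30 and 878 and 775 cRPKM at P1. Each of the 3 genes separated the groups completely, with adjusted p of 4.78e-08, 1.91e-05 and 8.7e-07. The members that fell besides Fabp7 were Nes, Tnc, Vim, Slc6a11 and Aldh1l1. Nes, the intermediate filament of neural progenitors, had 1.72, 1.95 and 1.71 cRPKM at P30 and 17.8 and 44.5 cRPKM at P1 (adjusted p = 2.73e-05).

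**Figure D2:**
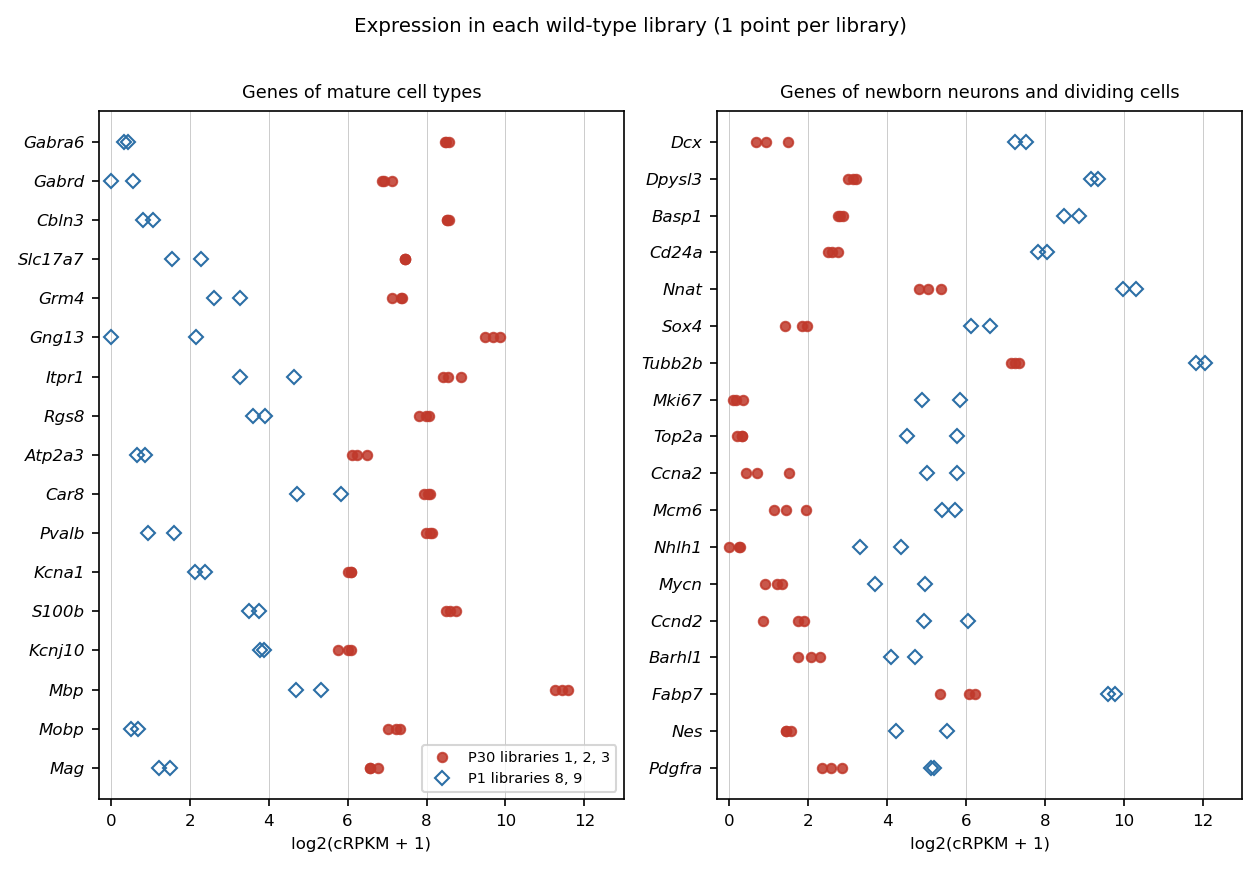
Expression of 35 genes as log2(cRPKM + 1), 1 point per library, with filled circles for P30 libraries 1, 2 and 3 and open diamonds for P1 libraries 8 and 9. Genes of mature neurons and glia (left) have all P30 points to the right of the P1 points, and genes of newborn neurons and dividing cells (right) have them to the left.

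Few genes of microglia, vessels, blood and choroid plexus were called with all 13 libraries fitted, against 25.4% of all genes. With only the 2 compared groups fitted, 4 of 19 microglia genes rose and none fell. In that fit 4 of 21 endothelial and pericyte genes rose and 4 fell, and 6129 of all 14063 genes were called. Counted by junction reads, 5 of 15 endothelial and pericyte genes rose and 5 fell. Choroid plexus genes so counted had 5 of 8 higher and 1 lower, with 6409 of all 11058 genes called. Of 19 microglia and complement genes 1 rose and none fell (Ctss, adjusted p of 0.0625 to 0.173 without P1 library 9 or P30 library 1 or 3), and of 21 endothelial and pericyte genes 1 rose and 2 fell. Without P1 library 9 none of the endothelial and pericyte genes fell, without P1 library 8 the number was 1, and without P30 library 2 there were 2 that rose. Slco1a4, an organic anion transporter of the blood-brain barrier, had 14.1, 16.6 and 11.4 cRPKM at P30 and 0.59 and 1.35 cRPKM at P1 (adjusted p = 0.000249). None of the 5 haemoglobin and red cell genes tested was called. In the choroid plexus list 1 of 15 genes was called, and without P30 library 1 the number was 4. Among 20 genes of meninges and fibroblasts 6 fell and 1 rose, and without P1 library 9 those counts were 2 and 0. Without P1 library 8 the number that fell was 3, and without P30 library 1 or 3 none rose. Col3a1, a fibrillar collagen, had 1.63, 1.91 and 1.85 cRPKM at P30 and 20.9 and 30.99 cRPKM at P1 (adjusted p = 1.63e-06). In the midbrain and hindbrain list 8 of 17 fell, and 2 fell when P1 library 8 was left out.

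Subunits of the receptors for GABA and glycine moved in both directions. Of 23 genes tested 7 rose and 4 fell, against 9.66% of all genes higher and 15.8% lower, so the falls were near the share of all genes. Gabrb2, a beta subunit common in the adult brain, had 73.4, 70.3 and 63.4 cRPKM at P30 and 20.4 and 19.9 cRPKM at P1. Gabra3, an alpha subunit common in immature neurons, had 4.49, 3.45 and 3.64 cRPKM at P30 and 43.01 and 23.7 cRPKM at P1. The groups did not overlap for either gene, and the log2 changes were 1.73 (adjusted p = 0.00038) and -2.77 (adjusted p = 7.78e-05). The glycine receptor changed likewise in its subunits, with the beta subunit Glrb at 82.8, 81.2 and 79.95 cRPKM at P30 and 25.2 and 17.1 cRPKM at P1, and the alpha subunit Glra2 at 1.02, 1.74 and 1.81 cRPKM at P30 and 29.9 and 23.98 cRPKM at P1. All P30 values of Glrb were above and all those of Glra2 below the P1 values (adjusted p = 0.00153 and 4.93e-05). Slc12a5, which lowers intracellular chloride in mature neurons, and Slc12a2, which raises it, were both among the genes that rose, although Slc12a5 lost its call without P1 library 9 (adjusted p = 0.169) and Slc12a2 without P1 library 8 (adjusted p = 0.0539).

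Glutamate receptor genes moved both ways, 9 higher and 10 lower of 34. Gria1 and Gria4, the AMPA receptor subunits of Bergmann glia, rose: Gria1 had 149.8, 109 and 129.8 cRPKM at P30 and 32.1 and 35.9 cRPKM at P1, and Gria4 had 151, 139 and 133 cRPKM at P30 and 35.9 and 35.7 cRPKM at P1. Each P30 library was above both P1 libraries for these subunits (adjusted p = 5.34e-06 and 3.21e-06). The fall of Cacng4, an auxiliary AMPA receptor subunit, was to 11.6, 8.48 and 10.6 cRPKM in the P30 libraries, against 71.1 and 73.7 in the P1 libraries (adjusted p = 4.19e-06). Chosen after its values were seen, Grin2c, the NMDA receptor subunit of mature granule cells, had 60.2, 95.4 and 79.7 cRPKM at P30 and 1.62 and 4.29 cRPKM at P1, a log2 change of 4.39 (SE 0.75, adjusted p = 0.001). Grin2b, the subunit common in young neurons and looked up for the same reason, had 0.61, 0.33 and 0.27 cRPKM at P30 and 2.85 and 3.84 cRPKM at P1, which missed the threshold (adjusted p = 0.0913). The test called Grin2b with only the 3 wild-type groups (adjusted p = 0.00304) or only the 2 compared groups (adjusted p = 0.00282) in the fit, and when genes were counted by junction reads (adjusted p = 6.94e-05). For Grin2b the P30 values were below those of P1 but close to the detection step.

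Every sodium channel or accessory gene tested was called, 8 higher and 4 lower of 12, with a median log2 change of 1.37. Scn2b, an auxiliary beta subunit, had 118, 97.9 and 118 cRPKM at P30 and 2.55 and 3.34 cRPKM at P1, and Scn4b, the beta subunit linked to fast repetitive firing, had 21.6, 13.7 and 16.2 cRPKM at P30 and 0.38 and 0.71 cRPKM at P1. Scn3b, the beta subunit of immature neurons, had 0.81, 1.42 and 1.25 cRPKM at P30 and 69.6 and 45.5 cRPKM at P1, and Scn3a, the alpha subunit of the embryonic brain, had 0.25, 0.38 and 0.23 cRPKM at P30 and 24.9 and 18.2 cRPKM at P1. P30 values lay above those of P1 for Scn2b and Scn4b (adjusted p = 6.1e-05 and 0.000164) and below them for Scn3b and Scn3a (adjusted p = 1.22e-07 and 5.92e-06). The adult alpha subunits, picked after their values were seen, were higher: Scn1a had 34.4, 33.97 and 29.5 cRPKM at P30 and 11.4 and 6.34 cRPKM at P1, and Scn8a had 32.1, 38.2 and 33.1 cRPKM at P30 and 13.6 and 22.2 cRPKM at P1 (adjusted p = 0.00162 and 0.012). For Scn8a the call was lost without P1 library 8 (adjusted p = 0.149). When genes were counted by their junction reads instead, 8 of the 12 genes could be tested, 3 were higher and 4 lower, and the median log2 change turned to -0.98.

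Of 37 potassium channel genes 13 rose and 4 fell, with 1 fall left without P1 library 8 and 2 without P1 library 9 or P30 library 3, while 9 fell when only the 2 compared groups were fitted. Of 15 calcium channel genes 4 rose and 3 fell, against 9.66% of all genes higher and 15.8% lower. Kcnc1, which encodes a fast Kv3 channel subunit, had 158, 164 and 142 cRPKM at P30 and 20.9 and 22.2 cRPKM at P1. Kcng4, a modifier subunit that assembles with Kv2 channels, had 58.3, 55.2 and 50.6 cRPKM at P30 and 0.17 and 0 cRPKM at P1. Cacna1a, the pore subunit of the P/Q-type calcium channel, had 83.98, 81.95 and 69.4 cRPKM at P30 and 20.2 and 18.4 cRPKM at P1. Its beta subunit gene Cacnb4 had 51.7, 55.9 and 48.4 cRPKM at P30 and 5.49 and 4.55 cRPKM at P1. These channel genes were high in all 3 P30 libraries, with adjusted p of 0.000379, 3.16e-07, 1.67e-05 and 2.55e-06. Cacna1h, a T-type channel, fell to 0.63, 0.28 and 0.46 cRPKM in the P30 libraries, against 7.71 and 7.43 in the P1 libraries (adjusted p = 0.00014), and Cacnb1 changed by -1.53 (SE 0.27, adjusted p = 0.00127).

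**Figure D3:**
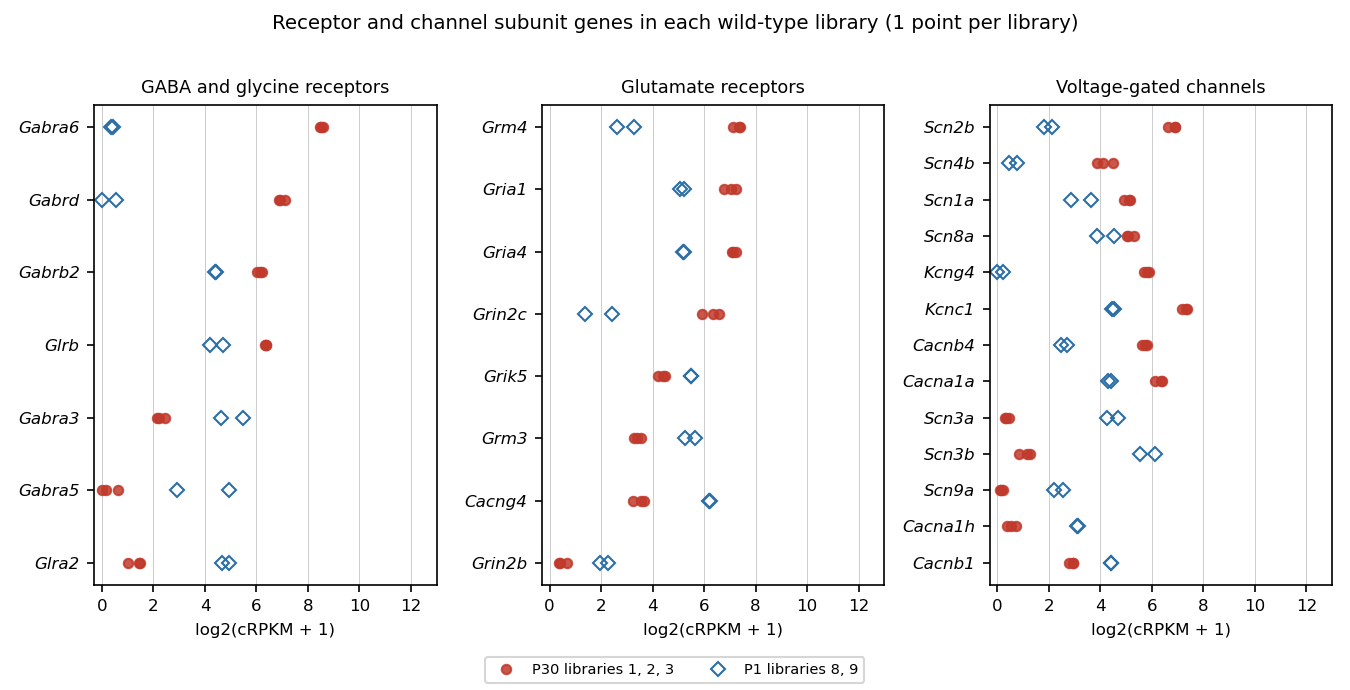
Receptor and channel genes as log2(cRPKM + 1), 1 point per library, with filled circles for P30 libraries 1, 2 and 3 and open diamonds for P1 libraries 8 and 9. In each panel the genes that were higher at P30 are drawn above those that were lower, with the P30 points to the right of the P1 points in the upper rows and to their left in the lower ones.

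At the presynaptic terminal 28 of 46 genes rose and 9 fell. Without P1 library 9 the number that rose was 18, and without P1 library 8 the number that fell was 5. Snap25, a SNARE of the plasma membrane, had 1647, 1562 and 1788 cRPKM at P30 and 242 and 125 cRPKM at P1. Syt2, a fast calcium sensor for release, had 66.9, 64.2 and 55.1 cRPKM at P30 and 9.31 and 5.7 cRPKM at P1. Slc17a7, the vesicular glutamate transporter VGLUT1, had 174, 174 and 174 cRPKM at P30 and 1.94 and 3.88 cRPKM at P1. Its relative Slc17a6, VGLUT2, moved the other way, with 5.91, 4.3 and 5.78 cRPKM at P30 and 59.8 and 34.6 cRPKM at P1. Stx1a, a syntaxin, also fell, with 1.7, 0.93 and 1.25 cRPKM at P30 and 56.8 and 39.2 cRPKM at P1. The groups were apart in all 5 genes, with adjusted p of 1.48e-05, 1.91e-05, 4.36e-06, 4.39e-06 and 6.84e-07. On the postsynaptic side 12 of 32 scaffold and signalling genes rose and 5 fell, 7 and 2 without P1 library 8, and 3 fell without P1 library 9 or P30 library 3. Since 9.66% of all genes were higher and 15.8% lower, the postsynaptic falls were near the share of all genes. Dlgap1, a scaffold of the postsynaptic density, had 83.9, 68.5 and 74.1 cRPKM at P30 and 20.8 and 15.6 cRPKM at P1 (adjusted p = 6.39e-06), and the kinase gene Camk2b changed by 1.75 (SE 0.19, adjusted p = 3.07e-05).

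In the axon guidance list 27 of 41 fell and 2 rose (Unc5b and Sema4d, the second not without P1 library 9, adjusted p = 0.127). Robo2, a receptor for Slit proteins, had 6.41, 4.15 and 5.05 cRPKM at P30 and 38.03 and 43.4 cRPKM at P1. Dcc, the netrin receptor, had 0.35, 0.52 and 0.45 cRPKM at P30 and 15.03 and 28.1 cRPKM at P1. In the matrix list 14 of 29 fell and 4 rose, with Ncan, a chondroitin sulphate proteoglycan, at 3.84, 5.55 and 4.86 cRPKM at P30 and 106 and 65.7 cRPKM at P1. P30 libraries were low in each of these, with adjusted p of 1.99e-06, 2.33e-05 and 1.63e-06. Hapln4, a link protein of perineuronal nets, went the opposite way, with 30.6, 27.3 and 26.4 cRPKM at P30 and 1.23 and 0.98 cRPKM at P1 (adjusted p = 5.98e-06). Among imprinted growth genes 12 of 19 fell and none rose, while 7 fell and 1 rose without P1 library 8. Cdkn1c, the cell cycle inhibitor p57, had 3.11, 2.21 and 3.85 cRPKM at P30 and 19.8 and 28.9 cRPKM at P1, and Nnat, a small proteolipid of the endoplasmic reticulum, had 40.6, 31.9 and 26.9 cRPKM at P30 and 1266 and 1006 cRPKM at P1. Both were lower in each P30 library (adjusted p = 0.000118 and 3.08e-08).

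Of 67 cytosolic ribosomal protein genes 48 fell and none rose, with a median log2 change of -1.31. Rplp0, a protein of the ribosomal stalk, had 429.6, 374 and 478 cRPKM at P30 and 2046 and 2315 cRPKM at P1, and Rps4x had 92.6, 86.8 and 109 cRPKM at P30 and 393 and 406 cRPKM at P1. Both P1 libraries were far above all P30 libraries (adjusted p = 7.29e-05 and 3.41e-05), and reads of these genes may be shared with processed pseudogenes, so their exact level is uncertain. Glycolysis and energy transfer genes rose in 13 and fell in 1 of 33 cases. Pfkm, a phosphofructokinase, had 167, 131 and 150.1 cRPKM at P30 and 45.2 and 39.3 cRPKM at P1, and Eno2, the neuronal enolase, had 226, 189 and 197 cRPKM at P30 and 39.7 and 20.6 cRPKM at P1. P30 values were above those of P1 for both (adjusted p = 5.26e-05 and 0.000358), and the member that fell was the lactate dehydrogenase gene Ldha, whose call was lost without P1 library 8 or P30 library 1 or 2 (adjusted p of 0.117 to 0.337). Oxidative phosphorylation genes were mostly without a call, with 6 of 61 higher and 1 lower, against 9.66% of all genes higher and 15.8% lower. Their median log2 change was 0.334, and 0.222 without P1 library 9. The number higher was 3 without P30 library 3. It was 17 with only the 3 wild-type groups fitted, 20 with only the 2 compared groups and 15 after quantile normalization. The 1 lower was called neither without P1 library 8 nor without any 1 of the P30 libraries. Of 24 genes of cholesterol synthesis and export 11 fell and 2 rose, and 5 to 8 fell and 1 rose with any 1 of the 5 libraries left out. Mvk, the mevalonate kinase gene, had 6.33, 11.1 and 7.44 cRPKM at P30 and 28.5 and 25.8 cRPKM at P1, and the sterol exporter gene Abcg1 had 32.1, 33.1 and 33.7 cRPKM at P30 and 7.7 and 6.08 cRPKM at P1. Mvk was lower and Abcg1 higher in each P30 library (adjusted p = 0.000661 and 2.02e-05).

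In the thyroid hormone list 3 of 14 genes rose and 2 fell (the receptor genes Thra and Rxrg, Rxrg not without P1 library 9, adjusted p = 0.0557), and the median log2 change was -0.24. Of all genes 9.66% were higher and 15.8% lower. The 3 that rose in the list were Klf9, Hr and Dio2. Klf9, a transcription factor induced by thyroid hormone and glucocorticoids, had 131, 84.9 and 122 cRPKM at P30 and 6.58 and 8.32 cRPKM at P1. Hr, a corepressor that thyroid hormone induces, had 31.4, 25.1 and 27.2 cRPKM at P30 and 0.22 and 0.62 cRPKM at P1. Dio2, the enzyme that activates thyroid hormone, had 16.4, 10.7 and 16.4 cRPKM at P30 and 0.11 and 0.15 cRPKM at P1. Hr and Dio2 were close to 0 in the P1 libraries, and the adjusted p of the 3 genes were 8.2e-06, 1.28e-05 and 0.000169. Of 17 circadian clock genes 10 rose and none fell, with Nr1d1, the repressor REV-ERB alpha, at 58.8, 57.8 and 75.3 cRPKM at P30 and 6.05 and 5.17 cRPKM at P1 (adjusted p = 1.28e-05). The time of day of collection is not in the labels and cannot be told apart from age. Of 18 immediate early and stress genes 5 rose and 1 fell, but without P1 library 8 none rose or fell, and without P1 library 9 and P30 libraries 2 and 3 in turn 3, 1 and 2 rose, with none lower without P1 library 9. Of 14 immune and MHC class I genes 3 rose and 1 fell, but without P1 library 9 none rose and without P30 library 1 only 1 rose. None of the immune genes fell without P1 library 8 or 9 or P30 library 1 or 2.

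Among neuronal splicing regulators 4 of 29 rose and 15 fell, and without P1 library 9 the number that rose was 2. The genes that rose were Rbfox1, Rbfox3, Mbnl1 and Mbnl2, of which Rbfox1 was not called without P1 library 9 (adjusted p = 0.127) and Mbnl1 not without P1 library 8 or 9 or P30 library 2 (adjusted p of 0.0513 to 0.122). With 9.66% of all genes higher and 15.8% lower, the rises in this list were near the share of all genes. Rbfox3, whose protein is the neuronal marker NeuN, had 74.2, 73.9 and 69.9 cRPKM at P30 and 17.4 and 14.2 cRPKM at P1. Mbnl2, a muscleblind protein that drives adult exon choices, had 64.3, 63.5 and 58.5 cRPKM at P30 and 9.94 and 14.2 cRPKM at P1. Ptbp1, the repressor of neuronal exons in dividing cells, had 17.2, 21.3 and 16.6 cRPKM at P30 and 53.6 and 79.8 cRPKM at P1. Its neuronal paralog Ptbp2, looked up after its values were seen, had 32.1, 44.9 and 35.7 cRPKM at P30 and 68.1 and 64.8 cRPKM at P1. The libraries of each age stood together in all 4 genes, with adjusted p of 1.09e-05, 4.64e-05, 2.7e-05 and 0.0368. The call of Ptbp2 was lost with adjusted p of 0.0972 to 0.168 when either P1 library or P30 library 1 or 3 was left out. Khdrbs3 (SLM2), a STAR family regulator, fell to 3.67, 4.26 and 5.19 cRPKM in the P30 libraries, against 23.3 and 22.1 in the P1 libraries, and Khdrbs2 (SLM1) to 5.5, 5.23 and 3.52 cRPKM, against 14.2 and 13.8 (adjusted p = 5.64e-05 and 0.00257). Khdrbs1, the Sam68 gene, had 31.4, 29.5 and 36.8 cRPKM at P30 and 56.5 and 74.4 cRPKM at P1. The spread in its test drew in part on the knockout libraries, which lack Sam68. With only the 3 wild-type or only the 2 compared groups fitted the call held. It was lost with 0.1 in place of 1 added to cRPKM (adjusted p = 0.0914), with libraries centred on their medians (0.0662) and with quantile normalization (0.0758). Although its groups did not overlap (adjusted p = 0.0386), the call of Khdrbs1 was lost whichever of the 5 libraries was left out, with adjusted p of 0.0659 to 0.263. Among core spliceosome, SR and hnRNP genes 20 of 54 fell and none rose, 13 without P1 library 9. Hnrnpa1, an abundant splicing repressor, had 130.1, 155 and 156 cRPKM at P30 and 601 and 656 cRPKM at P1 (adjusted p = 3.22e-06). In the chromatin list 17 of 39 fell and 2 rose, with Uhrf1, which maintains DNA methylation through replication, at 0.38, 0.21 and 0.47 cRPKM at P30 and 13.9 and 27.1 cRPKM at P1 (adjusted p = 9.32e-06), and 10 fell without P1 library 9. The number that rose there was 1 without either P1 library or P30 library 1 or 3.

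Splicing differed between the ages in every class of event. Of 33878 events 3731 (11%) differed by at least 10 points of PSI at an adjusted p below 0.05, 2280 (6.73%) with more and 1451 (4.28%) with less inclusion at P30. They fell in 2471 of 9181 genes with a tested event (26.9%). In 134 genes listed for exon choices known from neurons, myelin or the cytoskeleton, 123 had a tested event and 84 (68.3%) a called one. This list was made with earlier results of these data known, and the number of tested events per gene was not matched. The share is therefore not read as an enrichment. The largest share by class was that of exons of 3 to 27 nt, of which 151 of 532 had higher and 35 lower inclusion at P30 (35.0% called). Exons of 28 to 300 nt had 911 higher and 574 lower of 9087 (16.3%). Exons above 27 nt, 951 higher and 599 lower in all, had 418 and 277 without P1 library 8 and 480 and 340 without P1 library 9, and 391 were lower without P30 library 3. For the short exons the median PSI was 62.1, 65.4 and 60.8 in P30 libraries 1, 2 and 3, against 52.6 and 46.1 in P1 libraries 8 and 9. The excess of rises among the short exons held whichever of the 5 libraries was left out, with 97 to 141 higher and 22 to 33 lower. Of the called short exons 90.1% of those with higher and 88.6% of those with lower inclusion, and of those not called 80.1%, had lengths that are multiples of 3 and keep the reading frame. For exons of 28 to 300 nt those shares were 56.3% with higher inclusion, 56.1% with lower inclusion and 42.2% without a call.

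**Figure D4:**
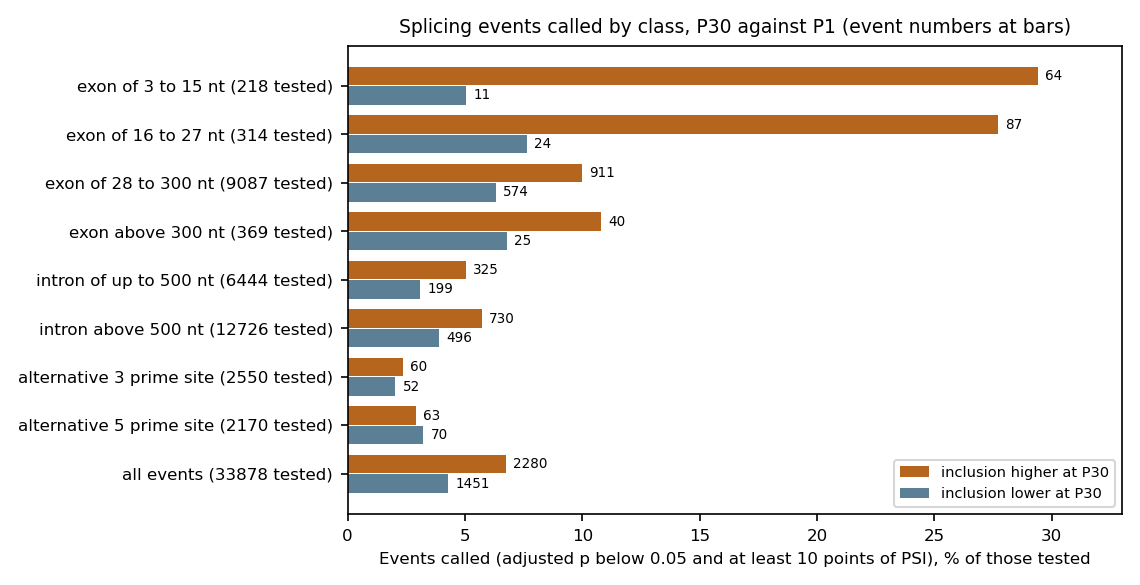
Events called with higher (brown) or lower (blue-grey) inclusion at P30, as a percent of the events tested in each class, with the number of events at each bar. Exons of 3 to 15 nt and of 16 to 27 nt have 64 and 87 events with higher inclusion, a larger percent than any other class.

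The exons below were chosen to show the kind of sequence that was exchanged, each with 20 nt of the neighbouring exons as joined in an annotated transcript (GENCODE release M21, GRCm38). Capitals mark the exon and lower case its neighbours. These exons were higher at P30, from chr2:25311343-25311405 (Grin1, minus strand), chr8:84635549-84635584 (Cacna1a), chr15:89538015-89538038 (Shank3), chr1:34296742-34296759 (Dst) and chr7:90194273-90194296 (Picalm), and all of them are annotated as coding.
Grin1, 63 nt: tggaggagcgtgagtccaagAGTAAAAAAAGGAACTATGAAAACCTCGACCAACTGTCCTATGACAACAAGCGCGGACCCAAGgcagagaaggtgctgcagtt
Cacna1a, 36 nt: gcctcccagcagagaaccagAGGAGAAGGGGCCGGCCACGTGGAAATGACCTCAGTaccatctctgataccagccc
Shank3, 24 nt: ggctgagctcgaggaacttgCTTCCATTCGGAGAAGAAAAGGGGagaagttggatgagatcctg
Dst, 18 nt: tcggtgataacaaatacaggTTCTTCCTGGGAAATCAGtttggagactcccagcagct
Picalm, 24 nt: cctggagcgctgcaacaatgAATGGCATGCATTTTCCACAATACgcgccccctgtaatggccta

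Next are coding exons that were lower at P30, from chr3:60614683-60614736 (Mbnl1), chr14:120395712-120395765 (Mbnl2), chr6:108365299-108365343 (Itpr1), chr9:113865086-113865112 (Clasp2), chr14:27776159-27776182 (Erc2) and chr1:132637864-132637881 (Nfasc, minus strand).
Mbnl1, 54 nt: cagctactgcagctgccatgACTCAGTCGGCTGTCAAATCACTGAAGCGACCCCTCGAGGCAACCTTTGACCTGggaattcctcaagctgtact
Mbnl2, 54 nt: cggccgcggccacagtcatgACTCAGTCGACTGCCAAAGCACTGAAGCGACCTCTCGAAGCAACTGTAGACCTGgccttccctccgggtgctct
Itpr1, 45 nt: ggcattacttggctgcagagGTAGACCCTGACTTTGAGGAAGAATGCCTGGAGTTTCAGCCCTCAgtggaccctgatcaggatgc
Clasp2, 27 nt: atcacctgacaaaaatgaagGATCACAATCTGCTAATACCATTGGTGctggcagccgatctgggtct
Erc2, 24 nt: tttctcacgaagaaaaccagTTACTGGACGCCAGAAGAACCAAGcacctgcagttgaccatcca
Nfasc, 18 nt: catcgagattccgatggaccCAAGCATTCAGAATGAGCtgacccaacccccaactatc
The Mbnl1 and Mbnl2 exons share 46 of 54 bases at the same positions.

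The 93 nt exon of Mapt had one of the largest differences of all. This exon, exon 10 of tau, adds a microtubule-binding repeat. Its PSI was 98.5, 98.6 and 99.1 in P30 libraries 1, 2 and 3, against 4.46 and 6.76 in P1 libraries 8 and 9, from 1114 to 1448 reads at P30 and 3194 to 3275 at P1. Tau transcripts thus nearly all held the exon at P30 and rarely at P1, a difference of 93.1 points (adjusted p = 1.59e-07). The 75 nt exon of Camk2b, the beta subunit of the synaptic kinase CaMKII, had a PSI of 97.4, 97.1 and 97.2 at P30 and 11.3 and 19.6 at P1. Ndrg4, a cytoplasmic protein abundant in neurons, had a 39 nt exon at 91.4, 90.4 and 91.1 PSI at P30 and 7.45 and 5.17 at P1. Numa1, the spindle and nuclear matrix protein, had a 42 nt exon at 97.4, 98.4 and 96.8 PSI at P30 and 29.2 and 19.3 at P1. These 4 exons reached over 90 PSI in each P30 library and stayed under 30 PSI in each P1 library, with adjusted p of 2.96e-07, 4.56e-07 and 1.35e-06 for the last 3.

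Channel and receptor transcripts carried several paired choices. Cacna1a, whose expression rose, holds a pair of mutually exclusive 97 nt exons (known as 37a and 37b) that encode alternative forms of a cytoplasmic calcium-sensing stretch. They lie at chr8:84614695-84614791 and chr8:84615574-84615670 and share 60 of 97 bases, and the second is matched to a transcript annotated as noncoding.
Upstream exon: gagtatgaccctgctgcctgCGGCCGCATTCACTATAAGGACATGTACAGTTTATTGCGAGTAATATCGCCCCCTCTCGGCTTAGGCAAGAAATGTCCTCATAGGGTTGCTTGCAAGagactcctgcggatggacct
Downstream exon: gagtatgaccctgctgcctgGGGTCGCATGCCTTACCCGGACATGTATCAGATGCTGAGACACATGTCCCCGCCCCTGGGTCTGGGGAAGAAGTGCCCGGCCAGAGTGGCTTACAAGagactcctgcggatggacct
The upstream exon had a PSI of 92.2, 90.9 and 89.6 at P30 and 12.8 and 8.21 at P1. The downstream exon, added after its values were seen as the partner, had a PSI of 7.96, 9.48 and 10.4 at P30 and 72.3 and 62.5 at P1. P30 libraries thus held mainly the upstream and P1 libraries mainly the downstream exon, by differences of 80.3 and -58.1 points (adjusted p = 3.38e-06 and 8.7e-06). A separate 36 nt exon of Cacna1a had a PSI of 95.8, 94.6 and 94.95 at P30 and 10.4 and 13.2 at P1 (adjusted p = 1.7e-07). Gria1 has the mutually exclusive 115 nt exons called flip and flop, which set how fast the AMPA receptor desensitizes. Their upstream member had a PSI of 11.6, 11.8 and 9.58 at P30 and 51.5 and 47.8 at P1, and the downstream member, again added as the partner, 94.8, 95.6 and 96.5 at P30 and 69.5 and 73.6 at P1. Each P30 library was below both P1 libraries for the upstream and above them for the downstream member, with differences of -38.7 and 24.1 points (adjusted p = 4.98e-05 and 0.000241). Since the members of each pair exclude each other, the shift of a partner is not separate evidence. In the P1 libraries the PSI values of the Gria1 members together exceed the whole, so they cannot be read as shares of exclusive forms.

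Grin1, the obligatory NMDA receptor subunit, kept its 63 nt N1 cassette more often at P30, at a PSI of 60.4, 59.6 and 59.9, against 25.6 and 19.7 at P1 (adjusted p = 0.000411). Among sodium channels, the 92 nt neonatal exon of Scn2a1 had a PSI of 0.36, 0.52 and 0.61 at P30 and 23.1 and 23.7 at P1 (adjusted p = 8.98e-06). The 123 nt exon of Scn8a, needed for a full-length channel, had 93.2, 97.1 and 96.6 at P30 and 69.7 and 57.8 at P1 (adjusted p = 0.000752). The neonatal exon was nearly absent at P30 and the Scn8a exon nearly always kept, and neither had overlapping groups. In Cacna1g, a T-type calcium channel, a 54 nt exon had a PSI of 1.65, 3.24 and 2.43 at P30 and 86.6 and 78.3 at P1, and an alternative 5 prime site that adds 21 nt had 96.4, 95.7 and 94.96 at P30 and 14.04 and 7.35 at P1. The P30 libraries nearly always lacked the 54 nt exon and used the 21 nt site, with adjusted p of 3.45e-07 and 4.48e-06. Itpr1, the calcium release channel whose expression rose, skipped its 45 nt segment (SI) in the ligand-binding part, with a PSI of 19.1, 16.8 and 20.3 at P30 and 83.2 and 85.4 at P1 (adjusted p = 5.49e-06).

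Microexons with higher inclusion included those of cytoskeletal, synaptic and vesicle proteins. The 18 nt exon of Dst, a giant linker of the cytoskeleton, had a PSI of 99, 100 and 99.1 at P30 and 13.4 and 14.2 at P1. In Shank3, the scaffold of glutamatergic synapses, a 24 nt exon had a PSI of 94.9, 94.04 and 93.1 at P30 and 50.1 and 52.1 at P1. Picalm, a clathrin adaptor, had a 24 nt exon at 68.1, 66.3 and 63.7 PSI at P30 and 11.7 and 8.7 at P1. P30 libraries were above both P1 libraries for each of these, with adjusted p of 5.81e-07, 2.41e-05 and 0.000154. Cadps, which primes dense-core vesicles, had a 21 nt exon at 88.9, 80.6 and 85.1 PSI at P30 and 25.4 and 32.2 at P1. The largest difference among all short exons was in Ryr1, a calcium release channel, where a 15 nt exon had a PSI of 98.3, 100 and 100 at P30 and 0 and 0 at P1, from only 33 to 50 reads at P30 and 21 to 25 at P1. The adjusted p was 1.91e-05 for Cadps and 2.41e-05 for Ryr1.

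Fewer microexons, 35 of 532, had lower inclusion. Clasp2, a microtubule plus-end protein, had a 27 nt exon at 3.89, 2.62 and 2.51 PSI at P30 and 75.4 and 63.3 at P1. In Erc2, an active zone protein whose gene also fell, a 24 nt exon had 15.4, 19.9 and 9.94 at P30 and 76.95 and 69.5 at P1. Kif3a, a kinesin motor subunit, had a 9 nt exon at 38.3, 45.98 and 47.6 PSI at P30 and 97.4 and 97.8 at P1. For all 3 the P30 libraries were below both P1 libraries (adjusted p = 4.48e-06, 3.44e-05 and 8.2e-06). Kcnma1, the large-conductance potassium channel, lost a 12 nt exon, at 1.24, 2.64 and 2.12 PSI at P30 and 73.1 and 61.8 at P1, and Nfasc, the adhesion molecule of nodes and axon initial segments, had an 18 nt exon at 38.6, 32.9 and 32.9 at P30 and 70.5 and 80.3 at P1. In Shank1, the relative of Shank3, a 24 nt exon had lower inclusion, with 50.5, 48.3 and 48.5 at P30 and 83.8 and 83.1 at P1. The adjusted p of these exons were 1.18e-06, 0.000368 and 0.000614, and no library of 1 age reached the range of the other.

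**Figure D5:**
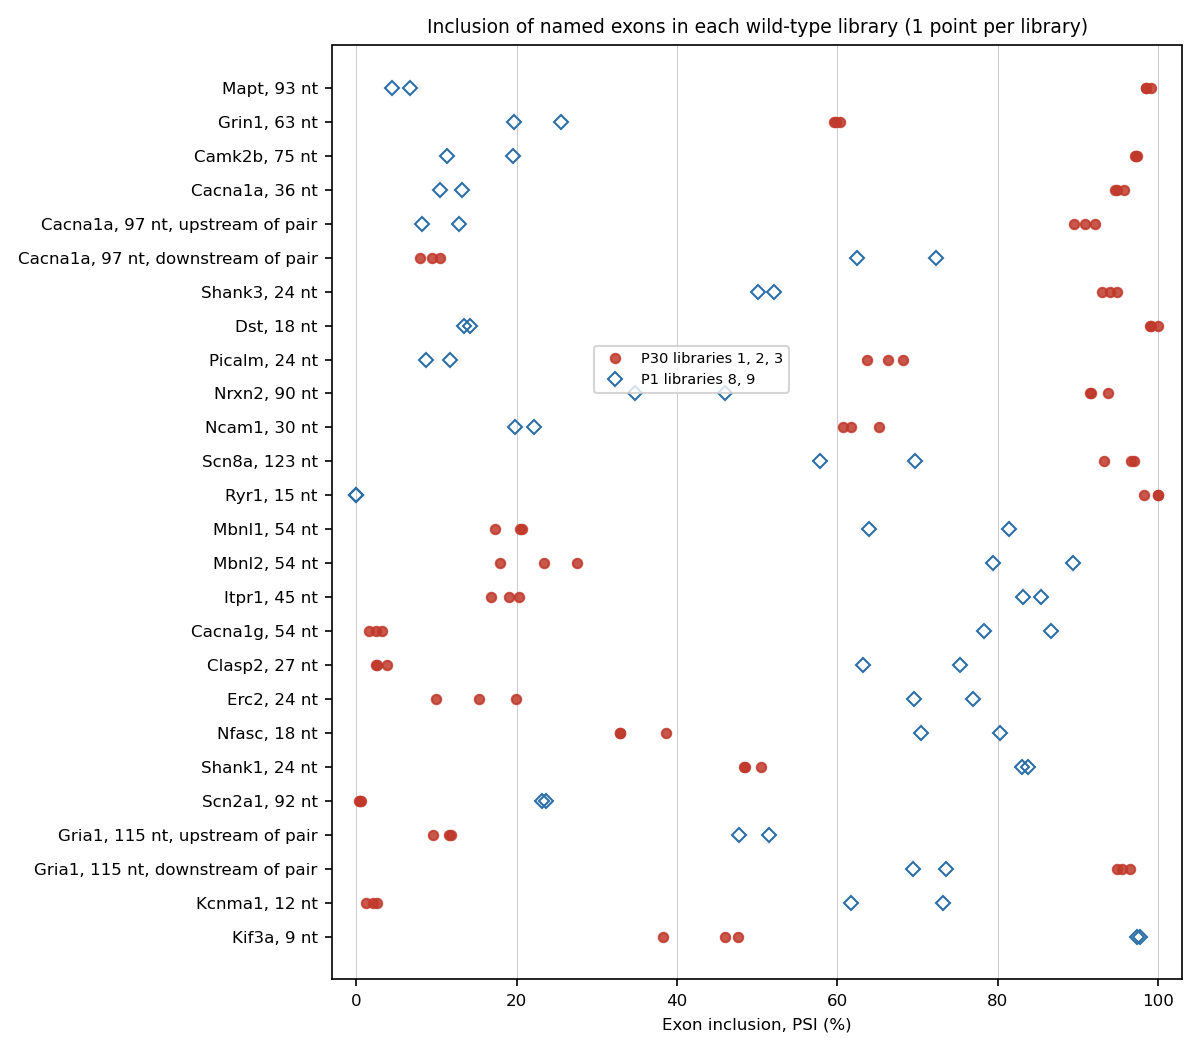
Inclusion (PSI, percent) of 26 named exons, 1 point per library, with filled circles for P30 libraries 1, 2 and 3 and open diamonds for P1 libraries 8 and 9. The Mapt exon lies near 100 at P30 and under 10 at P1, and the Cacna1a pair and the Gria1 pair each show opposite shifts of their members.

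Adhesion and signalling transcripts changed in cassette exons of known position. Nrxn2, a neurexin, kept its 90 nt exon (splice site 4, which selects postsynaptic partners) at 91.5, 93.8 and 91.7 PSI at P30, against 34.7 and 46.1 at P1. Ncam1 kept its 30 nt exon (VASE, in an immunoglobulin domain) at 65.3, 61.7 and 60.7 PSI at P30, against 22.2 and 19.7 at P1. Ppp3ca, a catalytic subunit of calcineurin, had a 30 nt exon at 85.1, 82.5 and 82.3 PSI at P30 and 32.3 and 35.9 at P1. All P30 libraries were above the P1 libraries for each exon, with adjusted p of 1.44e-05, 0.000197 and 1.3e-05. Lower inclusion was found for the 54 nt exon that brings muscleblind proteins to the nucleus, at 20.4, 20.6 and 17.3 PSI at P30 and 63.96 and 81.4 at P1 in Mbnl1 and at 17.9, 23.4 and 27.5 at P30 and 79.4 and 89.4 at P1 in Mbnl2. Robo2 skipped a 126 nt exon, with 10.2, 10.5 and 9.42 PSI at P30 and 66.5 and 54.2 at P1. The P1 libraries were high in these 3 exons (adjusted p = 0.000474, 5.63e-05 and 1.3e-05). In Tnc, a matrix protein whose gene fell, several exons for alternative fibronectin type III repeats were lost, and a 273 nt exon of them had 1.62, 0 and 0.42 PSI at P30 and 72.1 and 80.1 at P1 (adjusted p = 1.22e-05).

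Myelin transcripts changed in form as well as amount. A 33 nt exon of Mbp had a PSI of 99.8, 99.7 and 99.8 at P30 and 38.2 and 29.4 at P1, with 22913 to 28730 reads at P30 and 151 to 205 at P1. Mag kept a 258 nt exon at 99.7, 99.9 and 99.1 PSI at P30, against 71.8 and 68.6 at P1. An 81 nt exon of Gm98, the older symbol of the myelin regulatory factor Myrf, had 98.4, 98.3 and 98.1 at P30 and 69.6 and 53.3 at P1. These exons were close to full inclusion in every P30 library (adjusted p = 1.15e-06, 0.00143 and 0.000888).

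Alternative splice sites gave the fewest calls for their number. Of 369 exons above 300 nt 40 had higher and 25 lower inclusion (17.6%). Sgip1, an endocytic protein, had a 498 nt exon at 90.2, 88.96 and 89.9 PSI at P30 and 21.4 and 16.01 at P1. Mtap6, which stabilizes microtubules, had a 2089 nt exon at 1.77, 0.78 and 0.61 PSI at P30 and 47.9 and 45.4 at P1. The adjusted p of these exons were 6.59e-06 and 8.33e-06. Of 2550 alternative 3 prime sites 112 (4.39%) and of 2170 alternative 5 prime sites 133 (6.13%) were called, and of 850 acceptor pairs 3 nt apart 13 (1.53%). Together the alternative sites had 123 higher and 122 lower, which became 41 and 37 without P1 library 8, 67 and 58 without P1 library 9, 71 and 88 without P30 library 2 and 57 and 84 without P30 library 3. Camk2b was an exception among those pairs, with 1.92, 4.07 and 3.06 PSI for the 3 nt segment at P30 and 80.9 and 66.99 at P1. Dctn2, a dynactin subunit, used a 5 prime site adding 3 nt at 10.6, 11.7 and 10.9 PSI at P30 and 68.6 and 73.2 at P1. Syt1, the calcium sensor of synaptic vesicles, had a 9 nt segment at an acceptor at 42.7, 46.6 and 48.4 PSI at P30 and 94.1 and 96.2 at P1. The P30 libraries were below the P1 libraries in all of these (adjusted p = 4.48e-06, 2.13e-05 and 0.000166).

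Intron retention rested in part on P30 library 2. Of 19170 introns 1055 were retained more and 695 less at P30 (9.13% called). The median intron PSI was 7.69, 15.4 and 10.4 in P30 libraries 1, 2 and 3, against 9.73 and 10.8 in P1 libraries 8 and 9. Without P30 library 2 the counts turned to 577 higher and 685 lower, and without P30 library 1 they were 1480 higher and 483 lower. Without P1 library 8 they were 439 and 252, without P1 library 9 521 and 253, and without P30 library 3 693 and 416, so no general direction is given for introns. Among the calls made with all libraries fitted, introns and genes tended to differ in opposite directions, which was not checked with a library left out. Of the introns retained more 26.6% lay in genes lower and 6.37% in genes higher at P30, and of those retained less 7.08% lay in genes lower and 25.7% in genes higher at P30, against 11.2% and 7.79% of introns without a call. In Mog, a myelin surface protein looked up after its values were seen, the gene had 37.9, 45 and 57.6 cRPKM at P30 and 1.88 and 2.09 cRPKM at P1, and a 252 nt intron had a PSI of 3.52, 9.33 and 3.91 at P30 and 100 and 100 at P1. In Kif22, a mitotic kinesin also looked up afterwards, the gene had 0.45, 0.61 and 1.8 cRPKM at P30 and 7.41 and 13.3 cRPKM at P1, and a 126 nt intron had a PSI of 100, 100 and 100 at P30 and 14.8 and 13.1 at P1, from 17 to 51 reads at P30 and 31 to 69 at P1. The intron PSI was thus 100 where the expression of the gene was low, in the P1 libraries for Mog (adjusted p = 2.96e-07) and in the P30 libraries for Kif22 (adjusted p = 3.59e-06). Whether the reads in these introns came from mature transcripts was not tested. In Kcnc1, whose expression rose, a 1925 nt intron had 11.6, 25.1 and 16.7 PSI at P30 and 62.1 and 83.5 at P1 (adjusted p = 0.000524), and in Gabbr1, a GABA-B receptor subunit without a call in expression, a 1201 nt intron had 61.5, 55.1 and 59.6 PSI at P30 and 17.9 and 21.5 at P1 (adjusted p = 0.000479).

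Exons were also set beside the expression of their genes. Of the called exons with higher inclusion at P30 22.1% lay in genes that rose and 14.1% in genes that fell, and of those with lower inclusion 19.7% lay in genes that rose and 17.4% in genes that fell. Exons without a call lay in genes that rose in 8.71% and in genes that fell in 13.5% of cases. Most called exons, 691 of 1083 with higher and 390 of 620 with lower inclusion, lay in genes without a call in expression. Nrxn2 was among these genes, with an exon that changed by 51.9 points.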

How the data were processed

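RNA of mouse cerebella was made into stranded mRNA libraries, per the labels' protocols, and the authors deposited 1 column of values per library. Reads were checked with FastQC and trimmed with Trimmomatic and the genome build was mm9, per the submitters' processing notes, while no aligner or quantification program is given in the sources used here. Expression was deposited by the authors as RPKM corrected for mappability (cRPKM). Inclusion was deposited by the authors as a percent (PSI) with the reads for and against each event. Of 22667 genes 1114 had no value, and 30610 of 283765 events, which describe alternative sites that add no base, were not used.

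From these values, log2(cRPKM + 1) was fitted with limma 3.58.1 (trend) in R 4.3.3 over 13 libraries and 5 groups, and the contrast was P30 over P1. For events, log2((reads for inclusion + 0.5)/(reads against + 0.5)) was fitted likewise, requiring 10 or more reads in 2 or more libraries per group and a mean PSI of 5 to 95. P-values were adjusted by Benjamini-Hochberg over all 14063 genes or all 34398 events, and called means an adjusted p below 0.05, with at least 10 points of PSI for events. Alternative sites of 1 group were then counted once, which left 33878 events. The fits were also run on simulated data with known changes and normally distributed noise, which checks the code and not the calls made here. Exons were matched to GENCODE M21 (GRCm38) by gene, exon length and both flanking intron lengths, without converting coordinates, and 7000 of 9988 tested exons matched.

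The text names up to 8 genes of smallest p per list, the 20 largest rises and falls, and for events the one of smallest p per listed gene and the 15 largest rises and falls per class, without predicted genes, and shows a choice of these. Other items are said to have been chosen after their values were seen, or are named only to complete a count. The largest rises and falls, of genes and of events, were taken only among calls whose libraries do not overlap between the ages. Separation of the libraries in those items was thus set by the choice. Naming by smallest p likewise favours genes and events whose libraries separate, so their separation is not added support. Gene lists and members were chosen with earlier results of these data known. Some items are not reported here.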

Additional observations from a re-analysis of the deposited data

How the results depend on the processing

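The number of called genes, 3575, was 5384 when only the 3 wild-type groups and 6129 when only the 2 compared groups were fitted, 4566 without knockout P1 library 15, and 6409 when genes were counted by junction reads. With 1 library of the compared groups left out in turn it was 2242 to 2761. The number of called events, 3731, was 2189 with a difference of at least 20 points, 2044 with balanced junction reads only, an alternative chosen after seeing the data, and 1597 to 3702 with 1 library left out. Where a P1 library was left out, the lone P1 library was assumed to vary like the other groups. Quantile normalization moved the median change of all genes to -0.006, against -0.133. Over all these alternatives 35.2% to 46.8% of called genes and 55.2% to 70.0% of called events were higher at P30, against 1359 of 3575 and 2280 of 3731. Of the 124 genes and 45 events tracked, 15 genes and 0 events lost their call with at least 1 library left out, 6 genes and 0 events changed sides of the threshold under the other alternatives, and none reversed. The tracked items are those named in the text, most of them picked for a small p or a large change. Few lost calls among them therefore say little about genes and events in general. No paired analysis was possible because the P30 and P1 libraries share no replicate number. Low cRPKM values rest on few reads, most of all in P1 library 9.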
